A study of Mus musculus with 12 samples.

Results

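Cardiomyocytes of mdx mice that had received PB1046 were compared with cardiomyocytes of mdx mice that had received saline, 3 libraries against 3. These 6 libraries, of 12 in the series, were chosen by genotype and treatment as the labels give them. The mdx PB1046 group (replicates 1 to 3) received the high dose, and the mdx saline group (replicates 1 to 3) received saline. Dosing on alternate days began at 4 weeks of age and ended at 12 weeks, and hearts were collected at 14 weeks, after a pause in dosing. Of the 0.75 and 1.5 mg/kg that were given in the study, the high dose of the labels is read as 1.5 mg/kg. Every animal of the series carries the mdx mutation, a premature stop codon in the dystrophin gene, and is the common mouse model of Duchenne muscular dystrophy. No untreated, wild-type or low-dose library was analysed here. The other 6 libraries, PB1046 and saline in mdx:Utrn+/- mice that have a single working Utrn allele, entered the fit and served to test whether a response differed between genotypes. RNA came from frozen pellets of isolated cardiomyocytes, with an RNA integrity number of at least 8, and 1.0 µg was made into stranded poly-A libraries. The batch entry of the labels takes a single value in each group, so batch in that sense and treatment cannot be told apart. Whether each library was 1 animal, and its sex or preparation day, is not stated. The limma p-values set a difference against the spread between libraries within the groups, pooled over all 12 libraries, and that spread may be partly technical.

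PB1046 is a long-acting analog of vasoactive intestinal peptide (VIP) that prefers VPAC2, the receptor encoded by Vipr2, and mdx mice lack functional dystrophin, which links the cell skeleton to the membrane. VIP receptors couple to the stimulatory G protein, which activates adenylyl cyclase. The cyclic AMP that follows releases the catalytic subunits of protein kinase A (PKA), and PKA phosphorylates the transcription factor CREB, while phosphodiesterases degrade cyclic AMP. NF-kB is a family of transcription factors held in the cytoplasm by inhibitor proteins until a receptor signal removes them. It then induces chemokines, adhesion molecules, survival factors and its own inhibitors, and in dystrophic muscle it is known to be chronically active. The question the series put to these libraries is how transcripts of the cyclic AMP, PKA and CREB chain and of NF-kB differ with PB1046. The results follow that chain from the receptors down, and then turn to matrix, muscle and mitochondrial genes.

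Values are scaled TPM, that is transcript levels per length that sum to 1000000 in each library, divided by a factor per library that puts the bulk of genes on the same level. Log2 changes are PB1046 minus saline on the log2(scaled TPM + 1) scale, which understates the change of scarce genes. The 6 libraries held 11468012 to 14182354 reads in PB1046 and 18162943 to 25458205 in saline. Every PB1046 library was thus shallower than every saline library (two-sided exact permutation test, p = 0.1, the smallest that 3 against 3 can give). Rn45s, the entry for the 45S ribosomal RNA precursor, stood at 22723, 20316 and 9029 in PB1046 and 1027, 7048 and 10231 in saline. The third PB1046 library was below the third saline library, so the groups overlapped. Lars2, the mitochondrial leucyl-tRNA synthetase, ran in parallel and did not overlap, narrowly, with 7869, 7732 and 3569 in PB1046 and 399, 2736 and 3436 in saline. Cardiomyocyte markers summed to 94420 to 172000 in PB1046 and 135200 to 149400 in saline, and none of the 10 was at 0 in any library. Markers of other heart cells were also present, and their levels stand beside the results they move with. The libraries carry numbers: PB1046 replicate 1 is N2609, saline replicate 1 is N2668, and the other 4 lie at N2701 to N2708. What the numbers stand for is not given, so 2 against 2 values within N2701 to N2708 are given where they matter.

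No single gene passed the test. Of 12798 genes tested, 0 (0%) had an adjusted p under 0.05 in limma, and limma-voom on the reads recovered from the TPM also called 0. At an unadjusted p under 0.05 there were 396 genes (3.09% of those tested), 238 higher in PB1046 (1.86%) and 158 lower (1.23%). Uniform p-values would give 639.9, so the 396 are fewer than expected with no response. Leaving out the scaling factors moved the median of all genes by 0.14 (log2) and gave 471 higher and 61 lower. With a median-of-ratios factor it was 206 higher and 214 lower. The smallest adjusted p, 0.409, belonged to Mir186, listed at 0 in PB1046 and resting on at most 3 reads in a saline library. All other genes had an adjusted p of 0.9996 or more, and that holds for each gene named below unless said otherwise. In what follows "higher" and "lower" therefore describe the values of these 6 libraries, and a gene is said not to overlap when all 3 PB1046 values lay on the same side of all 3 saline values. The mean difference was above 0 for 6534 genes (51.1%) and below 0 for 6264 (48.9%). Non-overlap was seen for 541 genes on the higher side (4.23%) and 530 on the lower side (4.14%), and for 839 and 263 without the scaling factors. For 3 against 3 values with no difference, non-overlap on either side has a probability of 0.1, so these counts alone show no response. The 95% interval of a gene's log2 change had a median reach of 0.56 to either side, and 90.8% of genes had a change of less than 0.5. Genes are grouped into 56 lists with 939 members in the table, of which 875 passed the filter of 1 TPM in 3 of 12 libraries, and a list is described by its counts and its median beside these figures for all genes.

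**Figure D1:**
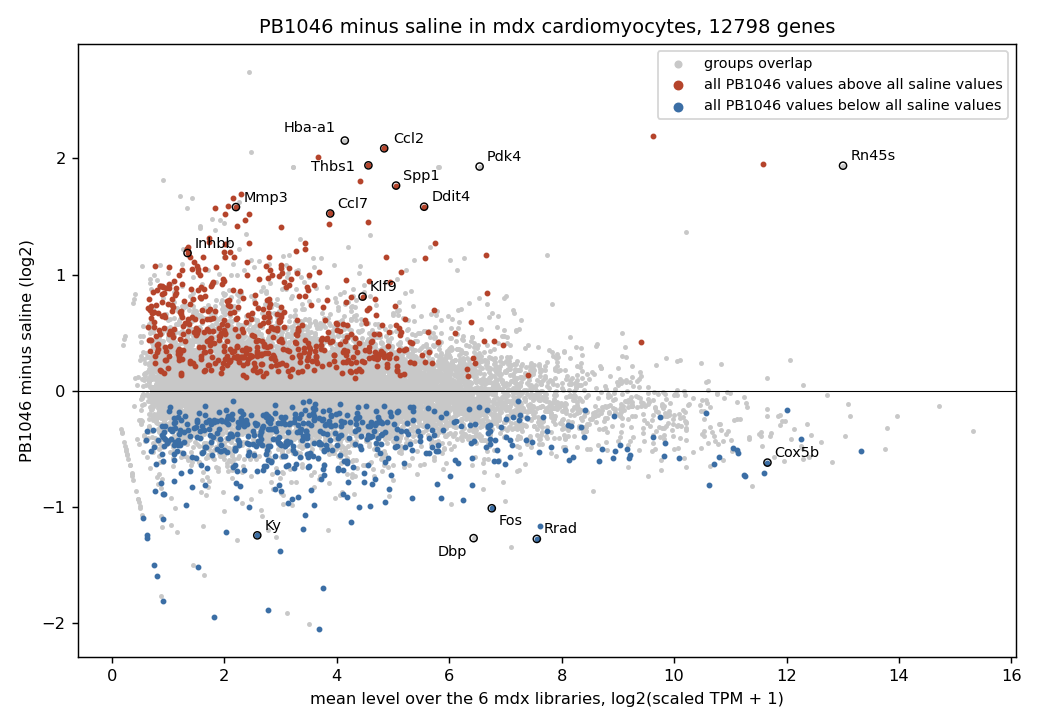
Each point is a gene, with its mean level over the 6 mdx libraries on the x axis, as log2(scaled TPM + 1), and its PB1046 minus saline change on the y axis (log2). Red points had all PB1046 values above all saline values and blue points all below, 541 and 530 genes, and circled genes are described in the text.

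Dystrophin and utrophin did not separate the groups. Dmd, the mutated gene, was at 4.07, 3.72 and 2.64 in PB1046 and 4.75, 3.01 and 4.48 in saline. Utrn, the homolog that can stand in for dystrophin at the membrane, was at 6.52, 13.4 and 14.3 in PB1046 and 8.81, 8.56 and 11.1 in saline. Its log2 change of 0.18 came from PB1046 replicates 2 and 3, while replicate 1 was below every saline value. Across the dystrophin-glycoprotein complex 8 of 14 tested genes were lower, with a median of -0.07 (0.06 without the scaling factors), against 48.9% lower and a median of 0.01 over all genes.

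Receptors for VIP and its relatives were scarce. Vipr2, the gene of the preferred receptor, was at 0.0793, 0.153 and 0.403 in PB1046 and 0.193, 0.366 and 0.218 in saline, on 2 to 14 reads in PB1046 and 9 to 15 in saline. Vipr1, the gene of VPAC1, was at 0.109, 0.556 and 0.755 in PB1046 and 0.173, 0.118 and 0.184 in saline. Both were under the filter, so neither was tested. Adcyap1r1 encodes PAC1, which prefers the related peptide PACAP, and had the highest TPM of the 3 receptors for VIP and PACAP. It stood at 7.93, 5.34 and 4.38 in PB1046 and 1.06, 2.87 and 2.47 in saline. All PB1046 values were above all saline values, and the log2 change was 1.15 (95% interval -0.08 to 2.39). Its highest library was also the highest in Rn45s and its lowest the lowest in Rn45s, and with the log2 Rn45s level of each library as a term in the fit (the Rn45s term) the change was 0.38. What part the Rn45s difference has in that value was not tested. Of the accessory proteins and the calcitonin-like receptor they serve, Ramp1 was at 11.7, 3.91 and 10.6 in PB1046 and 7.65, 4.32 and 5.16 in saline, Ramp3 changed sign when PB1046 replicate 3 was left out, and Calcrl had a log2 change of -0.57. The groups overlapped for all 3.

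Below the receptors, genes that carry or limit the cyclic AMP signal were mostly a little higher with PB1046. Among G proteins and adenylyl cyclases 11 of 15 tested genes were on the higher side, the median log2 change was 0.10, and 0 did not overlap. That median was -0.05 without PB1046 replicate 3 and 0.22 without PB1046 replicate 1. Adcy6, a main cardiac adenylyl cyclase, was on the lower side at 76.99, 77.8 and 59.8 in PB1046 and 75.4, 136 and 117 in saline, and the groups overlapped. Gna12, a G protein alpha subunit outside the stimulatory class, was at 29.9, 47.3 and 23.4 in PB1046 and 18.2, 14.5 and 16.3 in saline. It did not overlap, at a fold of 2.06 and a log2 change of 0.94 ± 0.28 (SE).

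Of 12 cyclic AMP phosphodiesterases tested, 10 were higher. Without overlap were 2 (16.7%), both on the higher side, against 4.23% of all genes. Pde3a, the enzyme that cardiac inotropes such as milrinone block, was at 6.22, 4.82 and 2.99 in PB1046 and 2.56, 1.36 and 1.79 in saline. All PB1046 values were above the saline values, and the log2 change was 0.95 ± 0.33 (SE). Pde7b, a cyclic AMP-specific enzyme, was at 6.89, 10.9 and 6.56 in PB1046 and 6.33, 2.74 and 4.13 in saline, also without overlap. The remaining 10 had log2 changes of -0.08 to 0.38. The list score, the mean centred log2 level of its genes, was 0.07, 0.23 and 0.08 in PB1046 and -0.14, -0.13 and -0.10 in saline. It was higher in each PB1046 library than in any saline library, and the median over the list was 0.14, or 0.11 to 0.29 when each of the 6 libraries was left out in turn.

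PKA subunits, anchors and Epac genes were higher in 14 of 18, with a median of 0.21 (0.11 without saline replicate 2 and 0.37 without saline replicate 1). Of the 18, 4 (22.2%) did not overlap, all on the higher side, against 4.23% of all genes. Prkar2a, a regulatory subunit that holds PKA at its anchors, was at 21.7, 30.01 and 17.1 in PB1046 and 10.5, 12.9 and 15.2 in saline. With the Rn45s term its log2 change of 0.77 was 0.26. Prkar2b, the other type II regulatory subunit, was at 1.16, 1.43 and 1.68 in PB1046 and 0.214, 0.910 and 0.244 in saline, on 29 to 58 reads in PB1046 and 10 to 37 in saline. The other 2 genes without overlap were the anchor Akap10 and the Epac gene Rapgef4, with log2 changes of 0.22 and 0.32. The catalytic subunit Prkacb was at 16.9, 18.8 and 17.1 in PB1046 and 17.5, 13.3 and 12.3 in saline, and the groups overlapped. The list's median in mdx:Utrn+/- was 0.19, close to the value in mdx, and the phosphodiesterase median there was 0.18.

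CREB itself and its partners moved little. Of 14 genes of the CREB family, its coactivators and the salt-inducible kinases that restrain them, 10 were higher, with a median of 0.15. The only one without overlap was the coactivator Crtc1, on the lower side at 4.02, 4.26 and 3.11 in PB1046 and 4.34, 4.75 and 5.23 in saline. That is 7.14% of the list, against 4.14% of all genes. Crebl2, a bZIP gene related to CREB that was not on the list, was at 8.10, 8.80 and 6.37 in PB1046 and 4.87, 4.63 and 4.37 in saline. It did not overlap and was among the 15 genes with the smallest p on the higher side (log2 change 0.63 ± 0.20 SE). Sik1, a kinase that cyclic AMP induces, was at 36.1, 29.5 and 56.9 in PB1046 and 42.4, 21.8 and 27.2 in saline, with overlap.

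Immediate early genes, which include classic CREB targets, were on both sides. Of 22 tested 13 were lower, against 48.9% of all genes, and the median log2 change was -0.25, or -0.12 without PB1046 replicate 2 and -0.14 without saline replicate 1. Fos and Jun did not overlap, both lower, which is 9.09% of the list against 4.14% of all genes, and 1 member had an unadjusted p under 0.05. Fos, a subunit of the AP-1 factor, was at 88.4, 71.8 and 67.2 in PB1046 and 207, 106 and 163 in saline. The PB1046 values lay close together under the lowest saline value, at 0.478 times the saline mean (log2 change -1.01 ± 0.45 SE). Jun, its partner, was at 57.05, 61.9 and 69.9 in PB1046 and 140.2, 87.8 and 111 in saline, again without overlap. Junb was at 83.9, 80.1 and 106 in PB1046 and 181, 105 and 172 in saline, and the zinc finger gene Egr1 at 26.2, 46.9 and 78.1 in PB1046 and 85.3, 74.1 and 120.1 in saline. In both the third PB1046 library was above the second saline library. The list score was -0.21, -0.42 and 0.27 in PB1046 and 0.25, -0.17 and 0.28 in saline, so PB1046 replicate 3 sat with the saline libraries. Other CREB targets were split, with 9 of 16 higher and a median of 0.05, and Cited2 was at 30.5, 22.4 and 22.1 in PB1046 and 55.6, 36.3 and 29.6 in saline.

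The Fos promoter is shown because its gene was lower and its window holds the core of the cyclic AMP response element. It is the 250 bases before the RefSeq start (chr12:85473640-85473889, plus strand, GRCm38.p6), with the letters TGACG in capitals wherever they occur on either strand.
Fos: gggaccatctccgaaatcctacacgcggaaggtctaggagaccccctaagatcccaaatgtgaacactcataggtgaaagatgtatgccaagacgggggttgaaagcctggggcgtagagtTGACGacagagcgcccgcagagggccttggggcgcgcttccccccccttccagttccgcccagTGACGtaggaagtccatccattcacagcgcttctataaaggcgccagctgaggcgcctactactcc
The letters occur at 2 places, on the plus strand, starting 129 and 66 bases before the start. In the same window 12 of 19 immediate early genes with a RefSeq window held TGACG (63.2%), against 30.6% of the 9392 tested genes with a window. A match describes letters only, here and in the other promoters, and says nothing of binding in these cells.

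NF-kB subunits and the receptors and adaptors that activate them were higher in 17 of 25, with a median of 0.11. That median was -0.0040 without saline replicate 1 and 0.23 without PB1046 replicate 1. Without overlap were 2 (8%), both higher, against 4.23% of all genes. Myd88, the adaptor of Toll-like and interleukin-1 receptors, was at 16.7, 21.6 and 17.3 in PB1046 and 10.9, 12.7 and 12.4 in saline. The log2 change was 0.58 ± 0.21 (SE). Tab2, which links that signal to the kinase TAK1, was at 23.8, 36.8 and 26.3 in PB1046 and 23.3, 22.7 and 23.5 in saline. Il1r1, the interleukin-1 receptor, was at 6.29, 9.23 and 8.09 in PB1046 and 3.03, 6.55 and 5.08 in saline, where a single saline library exceeded the lowest PB1046 value.

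Inhibitors that NF-kB induces against itself were higher in 10 of 14, with a median of 0.13. On the higher side 2 (14.3%) did not overlap, against 4.23% of all genes. Tnfaip3, the deubiquitinase and ubiquitin ligase of the feedback loop, was at 2.42, 3.67 and 4.07 in PB1046 and 1.41, 1.98 and 2.07 in saline and did not overlap. Zc3h12a, the RNase regnase-1 that degrades inflammatory transcripts, was at 5.26, 3.66 and 3.85 in PB1046 and 2.79, 3.27 and 3.66 in saline, a narrow gap. Nfkbia, the inhibitor IkB-alpha, was at 31.5, 81.5 and 118 in PB1046 and 27.5, 59.5 and 47.1 in saline and overlapped. Its log2 change of 0.65 was 0.25 to 1.18 when each library was left out.

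Effector genes of NF-kB were higher in 16 of 20 tested members, with a median of 0.32 (0.58 without PB1046 replicate 1 and 0.54 without saline replicate 3). Without overlap were 5 (25%), all higher, against 4.23% of all genes. At an unadjusted limma p under 0.05 there were 5, also all higher, where 1.86% of all genes were higher at that p. Lif, a cytokine of the interleukin-6 family, was at 1.92, 1.26 and 1.32 in PB1046 and 0.166, 0.267 and 0.586 in saline, on 42 to 62 reads in PB1046 and 11 to 31 in saline. It was 4.42-fold higher in the mean and did not overlap (log2 change 0.90 ± 0.33 SE). Sele, the endothelial selectin that slows leukocytes, was at 1.38, 3.61 and 1.34 in PB1046 and 0.718, 0.567 and 0.648 in saline. Ptgs2, the inducible prostaglandin synthase, was at 4.95, 2.79 and 3.45 in PB1046 and 1.89, 1.18 and 1.46 in saline. Both did not overlap, and neither did Il6 (12.96, 8.60 and 4.84 in PB1046, 1.08, 3.42 and 2.57 in saline) and the plasminogen activator Plau (6.41, 4.32 and 6.57 in PB1046, 2.15, 2.96 and 3.54 in saline). The survival gene Bcl2l1 was at 17.97, 38.4 and 38.3 in PB1046 and 9.61, 20.1 and 13.1 in saline, with its first PB1046 library just under the highest saline library. Icam1, a leukocyte adhesion molecule, was at 12.2, 25.2 and 20.1 in PB1046 and 6.02, 12.9 and 10.7 in saline, with the same small overlap. With the Rn45s term Lif and Icam1 had log2 changes of 0.50 and 0.54, against 0.90 and 0.89, while that of Bcl2l1 was 1.11, against 1.07. The 2 against 2 changes within library numbers N2701 to N2708 were 0.69, 0.88 and 1.19.

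Chemokines, the secreted proteins that draw leukocytes, had a higher median than any other list of the receptor, cyclic AMP, CREB or NF-kB chain. Of 20 tested 17 were higher with PB1046, the median log2 change was 0.60 (0.38 without PB1046 replicate 3 and 0.97 without saline replicate 2), and 7 did not overlap, all higher, or 35% of the list against 4.23% of all genes. Ccl2, the main attractant of monocytes, was at 72.9, 61.8 and 43.9 in PB1046 and 6.81, 17.01 and 18.3 in saline. The lowest PB1046 value was far above the highest saline value, and the means were 59.5 ± 14.7 in PB1046 and 14.05 ± 6.30 in saline (SD, n = 3 each), a fold of 4.24. Its log2 change was 2.09 (95% interval 0.42 to 3.75). Ccl7, a related monocyte attractant, was at 20.3, 27.8 and 24.7 in PB1046 and 5.39, 9.31 and 9.03 in saline (log2 change 1.53 ± 0.47 SE). Cxcl2, an attractant of neutrophils, was at 5.33, 6.35 and 4.86 in PB1046 and 2.59, 2.29 and 0.909 in saline. Ccl11, which draws eosinophils, was at 4.63, 2.42 and 7.53 in PB1046 and 1.40, 2.08 and 1.99 in saline. Cxcl14 was at 5.14, 4.76 and 11.8 in PB1046 and 1.50, 3.17 and 1.30 in saline. The other 2 without overlap were the neutrophil attractants Cxcl1 and Cxcl5, with log2 changes of 0.96 and 1.19. The 3 members on the lower side, Ccl3, Ccl5 and Cxcl16, had log2 changes of -0.19, -0.01 and -0.06.

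The acute-phase genes Saa3 and Ptx3, both innate immune proteins induced by inflammatory cytokines, had the same pattern. Saa3 was at 9.60, 8.31 and 6.05 in PB1046 and 0.861, 2.64 and 2.01 in saline, and Ptx3 at 7.75, 8.51 and 5.02 in PB1046 and 0.849, 1.63 and 2.26 in saline. With the Rn45s term Ccl2, Ccl7, Saa3 and Ptx3 had log2 changes of 0.97, 0.93, 0.82 and 0.78, against 2.09, 1.53, 1.70 and 1.66. The chemokine median was 0.54 with that term and 0.82 within N2701 to N2708. Macrophage markers lay on the same side. Of 17 tested 16 were higher, with a median of 0.45, no marker was at 0 in all 6 libraries, and their summed level was 378, 252 and 720.0 in PB1046 and 226, 698 and 130.4 in saline. The macrophage median was 0.06 without PB1046 replicate 3, 0.77 without PB1046 replicate 2, and 0.17, 1.00 and -0.0016 without saline replicates 1, 2 and 3. Neutrophil markers were higher in 4 of 4 tested (median 0.38, 0.16 to 0.75 with each library left out, lowest without PB1046 replicate 2 or 3 and highest without replicate 1), with 0 that did not overlap. They were scarce, summing to 2.83, 11.5 and 9.68 in PB1046 and 4.70, 5.80 and 2.46 in saline, with PB1046 replicate 1 below saline replicates 1 and 2. Pf4, a platelet marker, is also on the chemokine list. The second saline library was nearly as high as the third PB1046 library, 0 macrophage markers were without overlap, and the part of either cell type in the chemokine values was not tested.

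The promoters of Cxcl2, Lif and Bcl2l1 are shown as the 3 effector and chemokine genes with the smallest p, among the genes named by rule, whose window holds the NF-kB consensus. The consensus is in capitals where it occurs on either strand, and it was also in the windows of Il6 and Cxcl1. Each is the 250 bases before the RefSeq start in GRCm38.p6: chr5:90903649-90903898 on the plus strand, chr11:4257318-4257567 on the plus strand and chr2:152830718-152830967 on the minus strand, all written in the direction of transcription.
Cxcl2: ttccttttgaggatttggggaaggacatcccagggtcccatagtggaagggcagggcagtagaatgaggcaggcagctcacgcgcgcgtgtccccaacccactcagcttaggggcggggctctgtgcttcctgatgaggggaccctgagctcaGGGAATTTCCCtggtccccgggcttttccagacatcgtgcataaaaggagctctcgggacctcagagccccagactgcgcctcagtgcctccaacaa
Lif: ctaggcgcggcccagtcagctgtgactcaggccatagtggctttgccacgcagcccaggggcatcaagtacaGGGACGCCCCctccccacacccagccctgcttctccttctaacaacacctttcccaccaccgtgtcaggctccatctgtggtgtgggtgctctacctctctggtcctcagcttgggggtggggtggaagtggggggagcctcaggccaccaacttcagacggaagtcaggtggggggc
Bcl2l1: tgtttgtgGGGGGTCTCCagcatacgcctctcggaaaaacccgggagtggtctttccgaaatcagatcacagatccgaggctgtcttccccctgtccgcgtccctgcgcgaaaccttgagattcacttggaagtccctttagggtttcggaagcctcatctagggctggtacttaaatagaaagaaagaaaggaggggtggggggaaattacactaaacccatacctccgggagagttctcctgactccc
In Cxcl2 the plus-strand match and a minus-strand match overlap by all but 1 base, and in Lif the same 10 positions match on both strands. The consensus was in the window of 7 of 17 effector genes (41.2%) and 4 of 13 chemokines (30.8%), against 10.9% of the 9392 tested genes with a window and 7.25% of all windows.

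**Figure D2:**
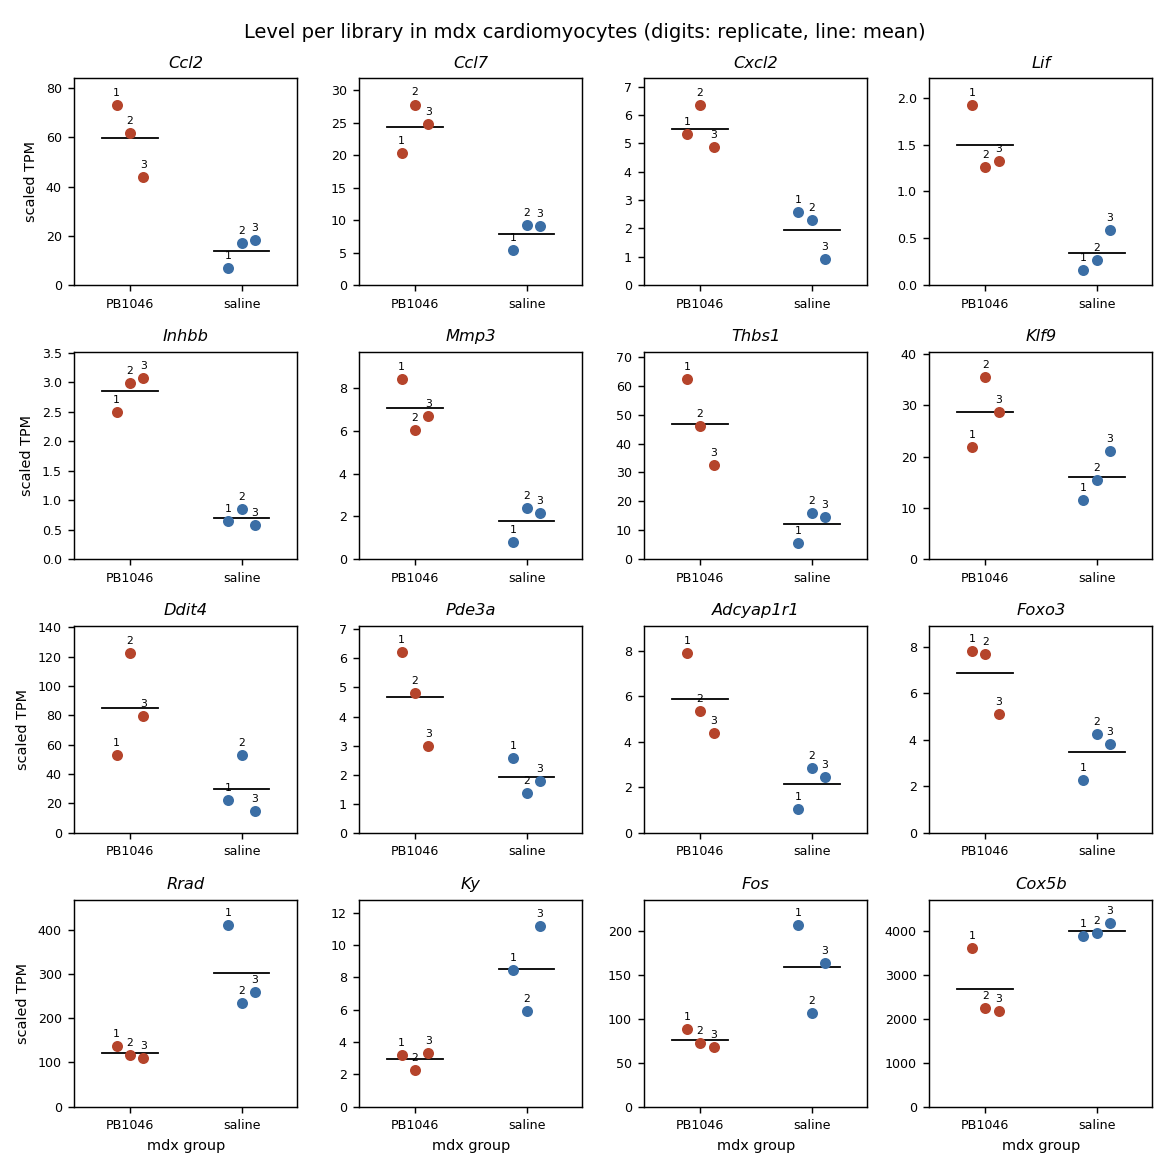
Levels of 16 genes in each mdx library (y axis, scaled TPM, from 0), with PB1046 on the left and saline on the right. Digits give the replicate and lines the mean of 3. All 16 genes were taken from those without overlap, so the separation in each panel follows from the choice. Named genes with overlap, such as Nfkbia and Pdk4, are not shown.

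Genes that respond to glucocorticoids, the adrenal steroids that act through a nuclear receptor, had a higher median than any list other than erythroid and platelet markers. Of 18 tested 17 were higher with PB1046, and the median was 0.78 on the log2 scale (0.50 to 1.05 with each library left out, the lowest without PB1046 replicate 3, 0.96 within N2701 to N2708 and 0.65 with the Rn45s term). The list score was 0.08, 0.59 and 0.51 in PB1046 and -0.39, -0.10 and -0.70 in saline, higher in every PB1046 library than in any saline library. Klf9, a Krüppel-like factor, was at 21.9, 35.5 and 28.7 in PB1046 and 11.6, 15.5 and 21.1 in saline (log2 change 0.81 ± 0.25 SE). Ddit4, an inhibitor of the growth kinase mTORC1, was at 53.1, 123 and 79.7 in PB1046 and 22.3, 52.7 and 14.99 in saline. Its lowest PB1046 value only just exceeded its highest saline value, and the fold of the means was 2.84. Errfi1, a feedback inhibitor of the EGF receptor, was at 17.6, 23.1 and 34.5 in PB1046 and 11.5, 17.5 and 11.7 in saline. These were the 3 genes without overlap, 16.7% of the list against 4.23% of all genes. Fkbp5, the receptor's chaperone and a standard target, was at 7.53, 15.01 and 12.2 in PB1046 and 3.40, 10.4 and 3.70 in saline, and Tsc22d3, known as GILZ, at 95.03, 111 and 212 in PB1046 and 58.9, 114 and 70.5 in saline. In both, saline replicate 2 stood among the PB1046 values. The cell cycle inhibitor Cdkn1a was at 14.04, 91.4 and 39.3 in PB1046 and 15.5, 21.04 and 8.42 in saline, with overlap. Dusp1, also an immediate early gene, was the member on the lower side (log2 change -0.31).

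Foxo3, a transcription factor of fasting and atrophy, was at 7.80, 7.68 and 5.09 in PB1046 and 2.28, 4.26 and 3.83 in saline, without overlap (log2 change 0.83 ± 0.25 SE). The atrogenes and autophagy genes it can drive were split, 11 of 22 higher with a median of 0.02. Fasting-responsive targets of the PPAR receptors were higher in 17 of 19, with a median of 0.26 (0.15 to 0.49 with each library left out). Pdk4, the kinase that stops pyruvate from entering the mitochondrial cycle, was at 324, 233 and 78.3 in PB1046 and 149.6, 21.7 and 30.9 in saline. The first library of each group was the highest of its group, so the groups overlapped although the fold of the means was 3.14. Genes of fatty acid uptake and oxidation were higher in 16 of 23, with a median of 0.09, or -0.14 to 0.38 with each library left out.

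Matrix genes were mostly higher with PB1046. Fibrillar and network collagens were higher in 14 of 14, with a median of 0.55 (0.25 without saline replicate 3 and 0.99 without saline replicate 2). Without overlap were 2 (14.3%), Col1a1 and Col15a1, against 4.23% of all genes. Col1a1, the main chain of type I collagen, was at 110.4, 76.6 and 66.7 in PB1046 and 22.7, 64.5 and 25.9 in saline. Saline replicate 2 was close to PB1046 replicate 3, and the other saline values were far below. The collagen score was 0.41, 0.15 and 0.33 in PB1046 and -0.59, 0.55 and -0.85 in saline, where saline replicate 2 was the highest of all 6. With the Rn45s term the median was 0.15. Matricellular and secreted matrix genes were higher in 18 of 25, with a median of 0.46 (0.27 without PB1046 replicate 3, 0.77 without PB1046 replicate 2 and 0.90 without saline replicate 2). On the higher side 4 (16%) did not overlap, against 4.23% of all genes, and on the lower side 1 (4%), against 4.14%. Thbs1, thrombospondin-1, which can activate latent TGF-beta, was at 62.3, 46.05 and 32.5 in PB1046 and 5.67, 15.8 and 14.7 in saline (log2 change 1.94, and 0.67 with the Rn45s term). Spp1, osteopontin, was at 92.2, 56.1 and 42.5 in PB1046 and 8.35, 28.9 and 19.99 in saline, with no overlap. Cyr61, a YAP target of the CCN family, was the member without overlap on the lower side, at 117, 91.8 and 98.4 in PB1046 and 193, 136 and 151 in saline (log2 change -0.63 ± 0.23 SE). Basement membrane genes were split (7 of 13 higher, median 0.03), and Nid1, nidogen-1, was at 30.9, 30.5 and 37.2 in PB1046 and 13.4, 23.7 and 19.7 in saline.

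Among metalloproteinases and their inhibitors 17 of 19 were higher, with a median of 0.49 (0.28 without PB1046 replicate 3, 0.32 without saline replicate 1 and 0.78 without saline replicate 2). Without overlap were 5 (26.3%), all higher, against 4.23% of all genes. Mmp3, stromelysin-1, was at 8.42, 6.06 and 6.71 in PB1046 and 0.798, 2.39 and 2.14 in saline. Its means were 7.06 ± 1.22 in PB1046 and 1.78 ± 0.855 in saline (SD, n = 3 each), and its log2 change was 1.58 (95% interval 0.65 to 2.51). Mmp19 was at 3.11, 3.08 and 3.24 in PB1046 and 0.624, 2.15 and 0.665 in saline, and the aggrecanase Adamts4 at 1.64, 2.62 and 0.742 in PB1046 and 0.160, 0.450 and 0.558 in saline. Genes of TGF-beta and activin signaling had a median of 0.09, near that of all genes, but the activin subunits stood apart from the list. Inhbb was at 2.49, 2.99 and 3.07 in PB1046 and 0.645, 0.854 and 0.578 in saline, and its PB1046 values were tight and far above the saline values (4.12-fold in the mean). It had the smallest p on the higher side of all genes (log2 change 1.19, 95% interval 0.52 to 1.85), and 0.86 with the Rn45s term. Inhba was at 7.11, 5.09 and 3.76 in PB1046 and 0.342, 1.67 and 1.50 in saline. Fst, follistatin, the protein that binds and blocks activins, was at 1.72, 2.11 and 1.46 in PB1046 and 0.475, 0.566 and 0.737 in saline and did not overlap either. These 3 are 11.1% of the 27 genes tested in the list, against 4.23% of all genes.

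Markers of the cells that make matrix lay on the same side. Fibroblast markers were higher in 14 of 14 with a median of 0.52 (0.09 to 0.97 with each library left out, lowest without PB1046 replicate 3 and highest without saline replicate 2), and none of the 14 was at 0 in all 6 libraries. Of these markers 5 are also on a matrix list. Their summed level was 768, 545 and 1499 in PB1046 and 438, 959.6 and 372 in saline, so the groups overlapped. Pdgfra, a receptor that marks fibroblasts, was at 11.8, 7.32 and 9.53 in PB1046 and 2.20, 5.36 and 4.03 in saline, without overlap. It was 1 of 3 fibroblast markers (21.4%) without overlap, all higher, against 4.23% of all genes. Pericyte and smooth muscle markers were higher in 10 of 12 with a median of 0.47 and a summed level of 1260 to 1611 in PB1046 and 1250 to 1902 in saline. Vtn and Pdgfrb, 2 of the 12 (16.7%), did not overlap, both higher, against 4.23% of all genes. Rgs5 was at 43.3, 106 and 98.2 in PB1046 and 13.9, 45.1 and 51.7 in saline. Erythroid markers were higher in 5 of 5 tested with a median of 1.93 (0.92 without PB1046 replicate 3), summing to 153, 57.9 and 857 in PB1046 and 55.8, 91.9 and 18.8 in saline, and platelet markers in 6 of 6. Hba-a1, whose reads cannot be told apart from those of its near-identical copy Hba-a2, was at 28.7, 10.2 and 155 in PB1046 and 8.76, 14.6 and 2.86 in saline. Endothelial markers were split (7 of 15 higher, median -0.04, or 0.12 without the scaling factors) and summed to 1074, 3383 and 5800 in PB1046 and 1463, 2700 and 3757 in saline, with PB1046 replicate 1 the lowest and replicate 3 the highest of the 6. Lymphocyte markers summed to at most 9.34 in any of these libraries. In such mixed material more cells of a type and more RNA per cell cannot be told apart, and the part of these cells in the matrix and chemokine values was not tested.

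**Figure D3:**
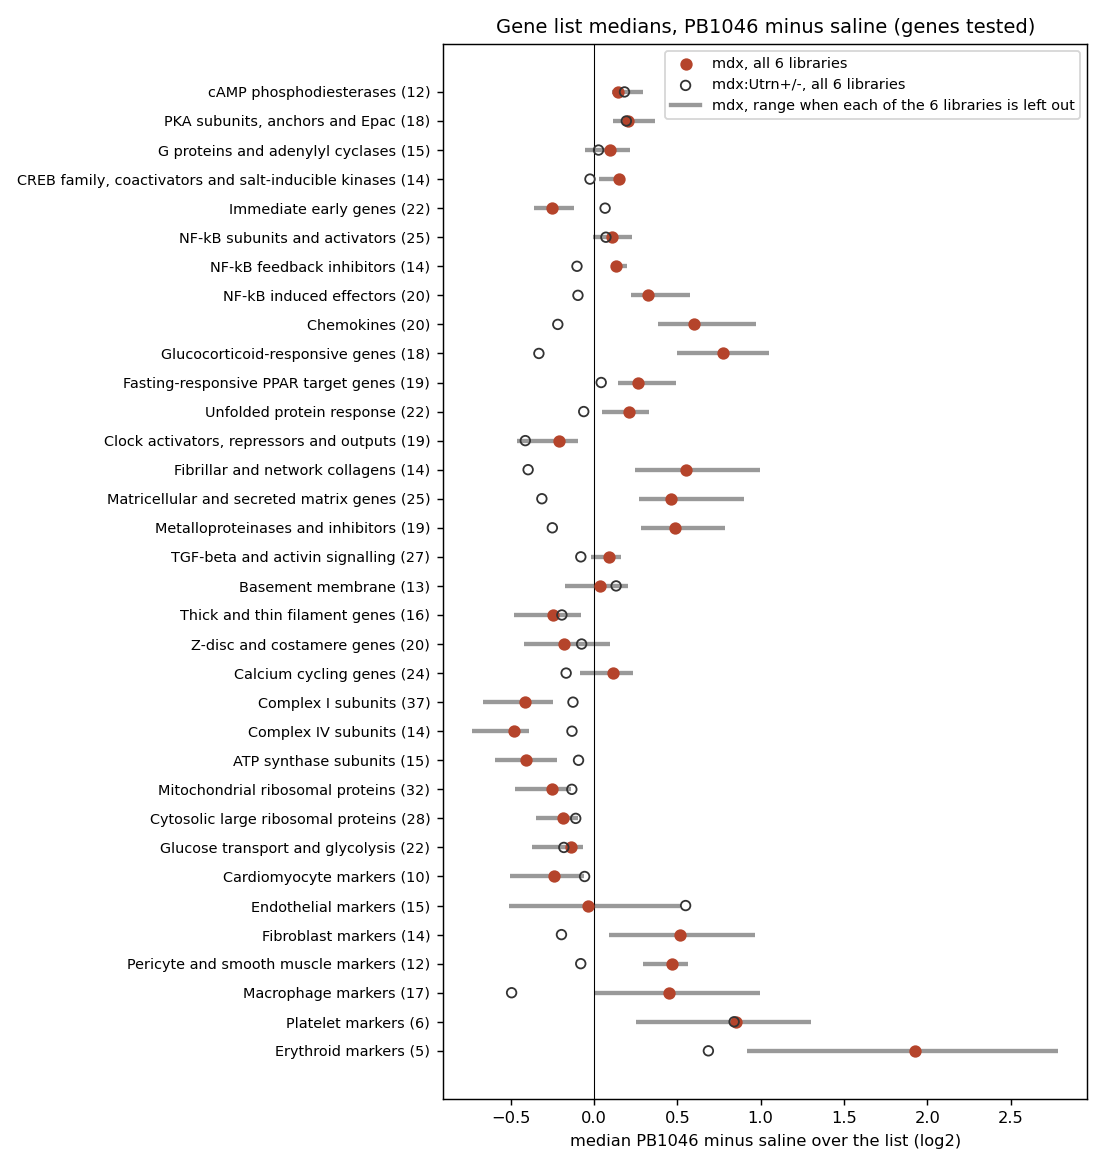
Median PB1046 minus saline change (log2) of 34 gene lists, with the number of genes tested in brackets. Red points are mdx and open points mdx:Utrn+/-, each from all 6 libraries of the genotype, and grey bars span the mdx medians when each of the 6 mdx libraries is left out, 0.50 to 1.05 for glucocorticoid-responsive genes and -0.0016 to 1.00 for macrophage markers.

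**Figure D4:**
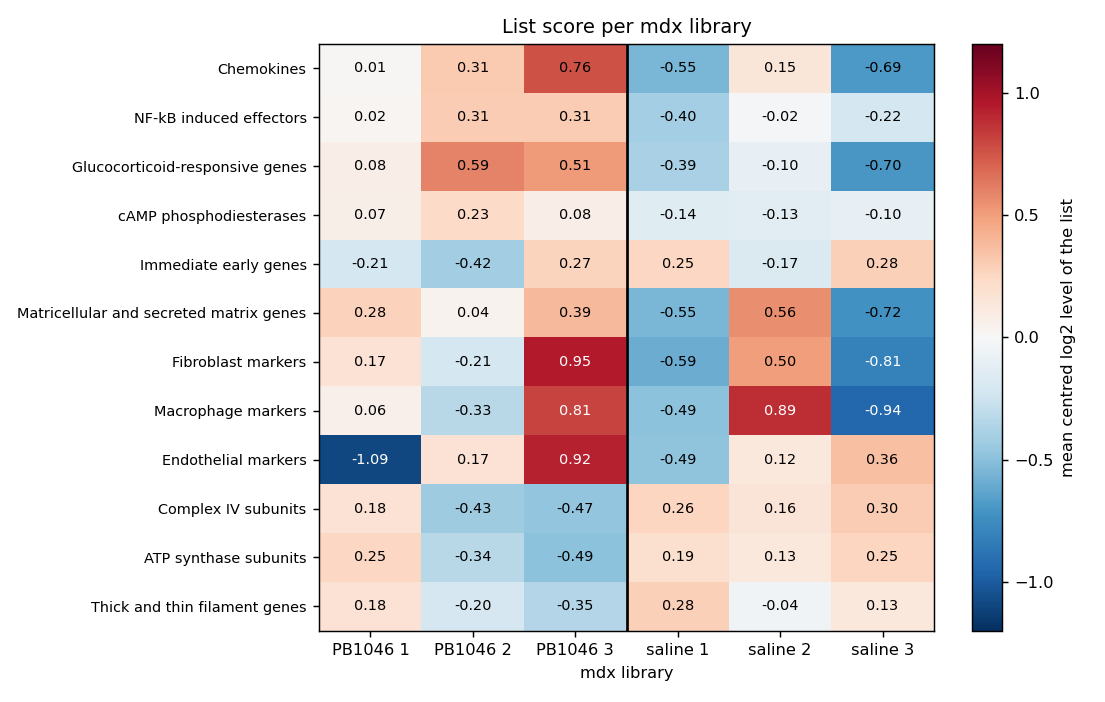
Score of 12 lists (mean centred log2 level of the genes) in each mdx library, PB1046 to the left of the black line and saline to the right, red above and blue below the mean of the 6. Glucocorticoid-responsive genes are 0.08 to 0.59 in PB1046 and -0.70 to -0.10 in saline, while macrophage, fibroblast and endothelial markers vary as much within a group.

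Rrad and Cacna1c, which both act on calcium entry, were lower with PB1046, while calcium cycling genes as a list were split. Rrad, a small GTPase that holds back the L-type calcium channel, was at 137, 116 and 109 in PB1046 and 411, 235 and 259.9 in saline. The PB1046 values were tight and all under the saline values, with means of 121 ± 14.2 in PB1046 and 302 ± 95.04 in saline (SD, n = 3 each), a fold of 0.400. Its log2 change was -1.28 (95% interval -1.98 to -0.57), -1.44 to -1.03 with each library left out and -1.24 with the Rn45s term. Cacna1c, the pore of that channel, was at 34.2, 18.4 and 12.4 in PB1046 and 40.5, 34.5 and 44.2 in saline, also without overlap, and its first PB1046 library was close to the lowest saline value. These were the 2 of 24 calcium cycling genes without overlap (8.33%, against 4.14% of all genes), and 13 of 24 of the list were higher (median 0.11). Clcn1, the muscle chloride channel, was at 2.73, 1.25 and 1.26 in PB1046 and 4.33, 3.82 and 8.33 in saline. Trpm7, a channel for magnesium and calcium with a kinase domain, was at 17.01, 16.8 and 14.6 in PB1046 and 25.7, 33.3 and 42.2 in saline. Kcnh2, the potassium channel that ends the action potential, was at 29.1, 20.1 and 22.7 in PB1046 and 33.1, 26.8 and 31.9 in saline, and overlapped, as did all 23 sodium and potassium channel genes tested (median -0.12, or 0.01 without the scaling factors).

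Ky, a Z-disc protein needed for skeletal muscle maintenance in mice, was at 3.18, 2.29 and 3.34 in PB1046 and 8.45, 5.90 and 11.2 in saline (log2 change -1.25 ± 0.34 SE). No PB1046 value reached any saline value. Irx4, a homeobox gene of the ventricles, was at 20.3, 16.1 and 12.96 in PB1046 and 30.3, 20.6 and 37.2 in saline. The actin regulator Coro6 was at 178, 150.0 and 83.1 in PB1046 and 262, 277 and 348 in saline. The stress kinase Plk2 was at 21.03, 26.5 and 40.4 in PB1046 and 43.8, 51.1 and 71.9 in saline, and Tia1, an RNA-binding protein of stress granules, at 12.5, 15.3 and 9.62 in PB1046 and 19.4, 22.7 and 31.5 in saline. All 4 did not overlap. Of the thick and thin filament genes 1 (6.25%) was without overlap, against 4.14% of all genes. It was Tpm1 (5142, 4355 and 3393 in PB1046, 6435, 5410.3 and 5149.6 in saline). The list was lower in 16 of 16, with a median of -0.24 (-0.08 without PB1046 replicate 3 and -0.48 without PB1046 replicate 1). With each library's trends over gene length and level removed, that median was -0.02. The cardiomyocyte markers themselves were lower in 9 of 10, with a median of -0.24, or 0.11 without the trends. Most of them (Myh6, Actc1, Tnnt2, Tnni3, Myl2 and Myl3) are also on the thick and thin filament list, so the 2 lists are not separate observations.

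Genes of oxidative phosphorylation were, as lists, lower in PB1046 replicates 2 and 3 and not in replicate 1. Complex I subunits were lower in 35 of 37, complexes II and III in 12 of 14, complex IV in 14 of 14 and ATP synthase in 14 of 15, with medians of -0.42, -0.29, -0.48 and -0.41. The complex IV score was 0.18, -0.43 and -0.47 in PB1046 and 0.26, 0.16 and 0.30 in saline, and that of ATP synthase 0.25, -0.34 and -0.49 in PB1046 and 0.19, 0.13 and 0.25 in saline. The first PB1046 library thus lay with the saline libraries. Left out, PB1046 replicate 1 moved the complex I and IV medians to -0.67 and -0.73, and PB1046 replicate 3 moved those of complex I and ATP synthase to -0.25 and -0.22. Without the trends over length and level the 4 medians were -0.16, 0.04, -0.10 and -0.07, and within N2701 to N2708 they were -0.73, -0.39, -0.75 and -0.62. Genes without overlap numbered 1, 0, 2 and 2, that is 5 of 80, or 6.25% against 4.14% of all genes. Cox5b, of complex IV, was at 3632, 2245 and 2185 in PB1046 and 3888, 3963 and 4193 in saline, and Cox6b1 at 2390, 1812 and 1545 in PB1046 and 3557, 2861 and 2971 in saline. Ndufb9, of complex I, was at 2678, 1663 and 1544 in PB1046 and 2773, 3286 and 3491 in saline, and Atp5j2, of ATP synthase, at 3394, 2216 and 1918 in PB1046 and 3844, 3708 and 4423 in saline. Cox6b2, the testis form of Cox6b1 and a scarce transcript here, was on the other side at 3.70, 4.00 and 3.16 in PB1046 and 1.59, 1.07 and 0.665 in saline, on 17 to 20 reads in PB1046 and 5 to 15 in saline.

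Mitochondrial ribosomal proteins, the machine that translates the mitochondrial genome's own respiratory subunits, were lower in 28 of 32, with a median of -0.25 (-0.15 without the trends, and -0.47 to -0.14 with each library left out). Of these 6 (18.8%) did not overlap, against 4.14% of all genes. Mrps15 was at 125, 104 and 102 in PB1046 and 159.6, 171 and 160.3 in saline, Mrps21 at 478, 381 and 338 in PB1046 and 571, 570.2 and 638 in saline, and Mrps24 at 113, 97.6 and 78.05 in PB1046 and 131, 133 and 145 in saline. The others were Mrpl11, Mrpl14 and Mrpl33, with log2 changes of -0.46, -0.44 and -0.60. The list score was 0.25, -0.28 and -0.35 in PB1046 and 0.28, -0.00 and 0.09 in saline. Cytosolic large ribosomal proteins were lower in 27 of 28, with a median of -0.19 that was 0.08 without the trends, and Rpl24 was at 810.0, 724 and 824 in PB1046 and 976, 1099 and 1154 in saline. Pprc1, a coactivator of mitochondrial biogenesis, was higher at 5.50, 8.52 and 7.06 in PB1046 and 4.68, 4.47 and 3.77 in saline. Glycolysis genes were lower in 19 of 22, with a median of -0.14 that was 0.01 without the scaling factors. Eno3, muscle enolase, was at 1765, 1415 and 1257 in PB1046 and 2091, 2174 and 2252 in saline, and Gapdh at 2085, 2002 and 1567 in PB1046 and 3263, 2679 and 2287 in saline, both without overlap. They were the only 2 of the 22 (9.09%), against 4.14% of all genes.

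In the unfolded protein response, which adjusts the folding capacity of the endoplasmic reticulum, 15 of 22 genes were higher with a median of 0.21 (0.05 without PB1046 replicate 1). On the higher side 3 (13.6%) did not overlap, against 4.23% of all genes. On the lower side it was 1 (4.55%), near the 4.14% of all genes. Hyou1, a chaperone of the organelle, was at 11.4, 11.9 and 9.998 in PB1046 and 8.58, 6.26 and 6.18 in saline. The disulfide isomerase Pdia3 was at 131, 95.5 and 115 in PB1046 and 93.7, 77.05 and 80.7 in saline. Ddit3, or CHOP, the transcription factor of prolonged stress, was lower at 54.5, 53.95 and 52.6 in PB1046 and 85.1, 97.4 and 136 in saline, with 3 nearly equal PB1046 values (log2 change -0.94 ± 0.34 SE). The cytosolic chaperone Hsp90ab1 was at 741, 886 and 738 in PB1046 and 727, 550.4 and 503 in saline. Clock genes were lower in 14 of 19, the mdx median being -0.21 and that of mdx:Utrn+/- -0.41. The output factor Dbp was at 40.5, 30.1 and 133 in PB1046 and 129.7, 96.5 and 189.7 in saline, with overlap, the third library being the highest of each group. Interferon response genes were lower in 15 of 22, with a median of -0.06 that was 0.09 without the scaling factors. Natriuretic peptides and fetal stress genes were split (7 of 14 higher, median -0.02, or 0.14 without the scaling factors).

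Among the remaining genes with the smallest p, Sgms1, a sphingomyelin synthase, was at 16.7, 17.96 and 14.8 in PB1046 and 11.8, 7.79 and 9.54 in saline. Rab7, the GTPase of late endosomes, was at 137, 172 and 104 in PB1046 and 67.2, 79.04 and 79.5 in saline. Srebf2, the transcription factor of cholesterol synthesis, was at 7.05, 7.90 and 7.27 in PB1046 and 4.64, 4.56 and 4.47 in saline, and its values were tight in both groups (1.62-fold). Steap4, a metalloreductase that inflammation induces, was at 9.19, 11 and 11.97 in PB1046 and 4.03, 5.97 and 4.47 in saline. Abcc1, an export pump for glutathione conjugates, was on the lower side at 12.8, 8.49 and 8.48 in PB1046 and 15.3, 16.02 and 17.3 in saline. All 5 were without overlap.

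The responses in mdx and mdx:Utrn+/- were set side by side, and the test of their difference called no gene. For the difference of the 2 responses 0 of 12798 genes (0%) passed an adjusted p of 0.05, with a smallest adjusted p of 0.9996, and 292 (2.28%) had an unadjusted p under 0.05. The correlation of the 2 responses over genes, which share no library but are not independent, was -0.04 (-0.0094 by ranks, after Spearman). Within mdx:Utrn+/- 728 genes (5.69%) were without overlap, on either side. In mdx it was 1071 genes. Genes without overlap in both genotypes numbered 48 of 12798, 27 on the same side in both and 21 on opposite sides. The number that 2 unrelated responses would share was not computed, so none of these counts is read as a result. In chemokines 7 of 20 genes were higher in mdx:Utrn+/-, with a median of -0.22, and in glucocorticoid-responsive genes 6 of 18, with a median of -0.33. Macrophage markers had a median of -0.49 there and collagens -0.40, while endothelial markers had 0.55. The log2 change of Klf9 was 0.81 in mdx and -0.35 in mdx:Utrn+/-, a difference of 1.16 ± 0.35 (SE). The levels in mdx:Utrn+/- were 13.9, 16.5 and 12.5 with PB1046 and 16.3, 23.5 and 16.2 with saline. Inhbb differed by 1.39 ± 0.43 (SE), Tia1 by -1.35 ± 0.39, Irx4 by -1.15 ± 0.35 and Ccl2 by 2.48 ± 1.08. Dbp was on the lower side in both, at -1.27 in mdx and -1.19 in mdx:Utrn+/- (log2). For Pde3a the difference was 0.84 ± 0.46 (SE). These genes were named for a small p or a large change in mdx, over all genes or within a list. Their differences between genotypes follow in part from that choice and are no further evidence.

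**Figure D5:**
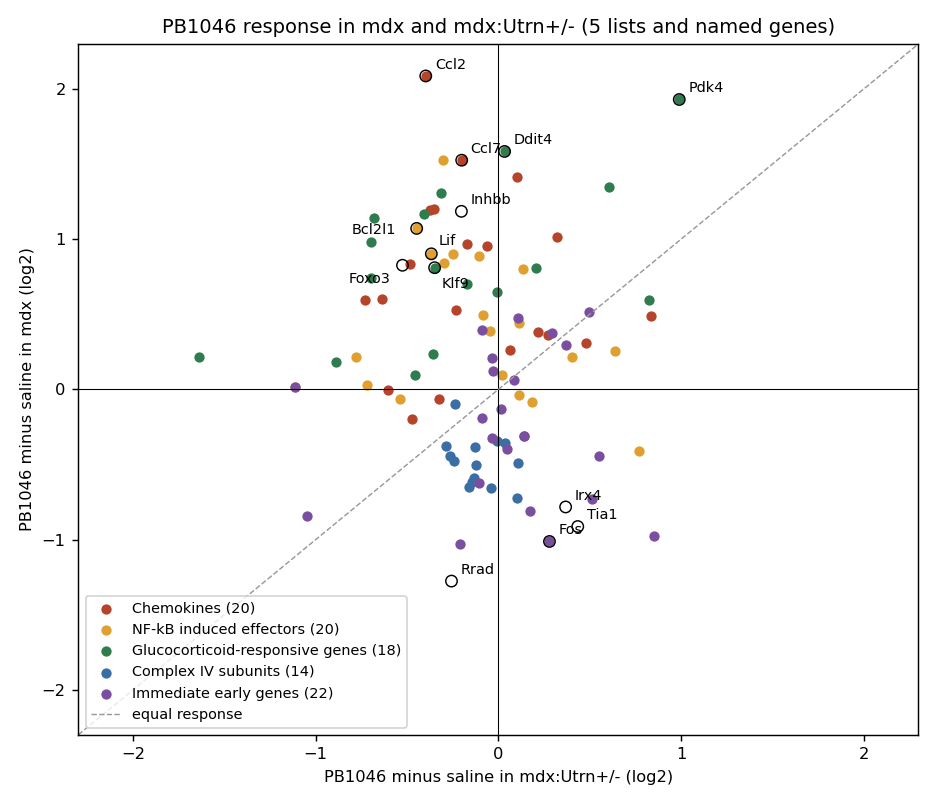
PB1046 minus saline (log2) in mdx on the y axis and in mdx:Utrn+/- on the x axis, for the genes of 5 lists (colours, with the number tested) and circled named genes. Most chemokine and glucocorticoid-responsive genes lie above 0 on the y axis and on both sides of 0 on the x axis, and the dashed line marks equal responses.

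The authors' deposited table holds their own comparison of these 2 groups, in which 0 genes had a false discovery rate under 0.05, 755 had a p-value under 0.05 and the smallest false discovery rate was 0.725. Those counts are over all 18530 genes, not the 12798 tested here, so 755 cannot be set directly against the counts above. Its fold changes run as saline minus PB1046, since over genes they had a Pearson r of -0.93 with the changes given here. Every fold in the text above is PB1046 over saline.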

How the data were processed

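Messenger RNA of isolated heart muscle cells was measured in 12 libraries, 3 in each of 4 groups. Per the submitters' processing notes the genome build was mm10 and edgeR was used, with no version, and the aligner is not given in the sources used here. The deposited table is named for counts, but its values are TPM, as each library sums to 1000000. Whole reads were recovered from the TPM steps for 18530 genes (100% of values within 0.1 reads), and they gave the depth per library and the limma-voom alternative, which called 0 genes. The authors' own log2 fold changes, p-values and false discovery rates, deposited in the same table with a likelihood ratio score per gene, are printed only where named, and the score is not used.

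A trimmed mean gave the scaling factor of each library (trimming from each side 30% of log ratios and 5% of levels), and log2(scaled TPM + 1) was fitted in limma 3.58.1 (R 4.3.3) with trend and robust variance, 4 group means over all 12 libraries and Benjamini-Hochberg adjustment over 12798 genes with at least 1 TPM in 3 libraries. The other 5732 genes were below that filter and were not tested. The limma fit was tested on simulated data with known changes. At the spread of these libraries it called 10 of 50 changes of 2-fold, 31 of 50 of 4-fold, 41 of 50 of 8-fold and 47 of 50 of 16-fold. It also called 8 unchanged genes, with 12730 genes fitted in all, the changed ones included. Most 2-fold changes were thus missed. Changes were put only into genes with a mean of at least 50 reads, so the rates do not cover scarcer genes. Intervals are at 95%, are for the difference of group means, and rest on the spread between libraries within the groups. "Without the trends" means that a lowess curve (span 0.3) of each library over gene length and mean level was subtracted. The Rn45s term is the library's log2 Rn45s level. Promoter windows are RefSeq's for GRCm38.p6. NF-kB consensus and TGACG were searched on both strands.

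The genes and lists were chosen with earlier results of these data known. Named genes are Dmd, Utrn, the VIP and PACAP receptors and Rn45s, the 15 per direction with the smallest p, the 10 per direction with the largest change among those without overlap, a few per list by smallest p, and members of the cell type lists, predicted and small RNA genes aside. Those named outside this rule, after their values were seen, are Akap10, Rapgef4, Il6, Plau, Cxcl1, Cxcl5, Ccl3, Ccl5, Cxcl16, Fkbp5, Tsc22d3, Cdkn1a, Dusp1, Mrpl11, Mrpl14, Mrpl33, Tmem181b-ps and Mir186. Other alternatives were another pseudocount, filter and scaling factor, the 6 mdx libraries alone, the replicate block and leaving out each library.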

Additional observations from a re-analysis of the deposited data

Results flagged for a closer look

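A pair of the named genes had groups without overlap in both genotypes but on opposite sides, which is why they are singled out. Foxo3, a transcription factor of fasting and atrophy, was at 7.80, 7.68 and 5.09 scaled TPM with PB1046 and 2.28, 4.26 and 3.83 with saline in mdx, and at 4.61, 4.31 and 2.47 with PB1046 and 6.08, 5.96 and 5.25 with saline in mdx:Utrn+/-. Its log2 change was 0.83 in mdx and -0.53 in mdx:Utrn+/-, and the difference of the responses was 1.35 ± 0.35 (SE). Zc3h12a, the RNase regnase-1, was at 5.26, 3.66 and 3.85 with PB1046 and 2.79, 3.27 and 3.66 with saline in mdx, and at 3.42, 3.10 and 2.20 with PB1046 and 4.03, 4.89 and 3.89 with saline in mdx:Utrn+/-. Its log2 change was 0.30 in mdx and -0.44 in mdx:Utrn+/-, and the difference was 0.74 ± 0.28 (SE). For the difference of the responses both had an unadjusted limma p under 0.05. As both were picked for groups apart on opposite sides, a small p there follows in part from the choice and is no further evidence. Neither passed the adjusted threshold, where the smallest adjusted p over all genes was 0.9996. They are 2 of the 21 genes with this pattern among 12798 tested, against 27 with groups apart on the same side in both genotypes. The number expected for unrelated responses was not computed.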

How the results depend on the processing

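The adjusted count for PB1046 against saline in mdx was 0 in every alternative run, and that for the difference of the responses was 0 apart from the fit without mdx:Utrn+/- saline replicate 3, which called Tmem181b-ps (range 0 to 1 over the libraries left out). At an unadjusted p under 0.05 the counts were 238 higher and 158 lower, and 367 and 255 with no filter on low values, 126 and 109 with a mean of at least 5 TPM, 471 and 61 with no scaling factor, 140 and 149 with the Rn45s term, and 777 and 905 in the 2 against 2 comparison of libraries N2701 to N2708. Leaving out each library gave 124 to 529 higher and 61 to 423 lower. Genes without overlap numbered 1071, and 643 with a mean of at least 5 TPM and 6082 in the 2 against 2 comparison, which has fewer libraries to overlap, and 1531 to 3655 without each mdx library. Of 129 named genes in 2937 pairs of gene and alternative, 2935 kept their direction. Ramp3 (-0.12, range -0.12 to 1.30 over the libraries left out) and Utrn (-0.0020, range -0.0020 to 0.51) changed sign without mdx PB1046 replicate 3. Much of that count was fixed in advance. Another filter, the replicate block, mdx alone or a missing mdx:Utrn+/- library leaves the difference of a gene's mdx group means unchanged. A gene without overlap, as many named genes were, cannot change sign when a single library is dropped. The count is therefore no measure of robustness. Nothing states that the replicate numbers pair the samples. Between same-numbered mdx libraries, deviations from the group mean correlated over genes at 0.49, -0.04 and 0.067. With 3 libraries a group these values cannot settle whether the numbers pair. With the replicate block the adjusted count was 0 and the unadjusted counts 313 higher and 185 lower. With the spread between these libraries and 3 a group, the 95% interval of a log2 change reached 0.56 to either side at the median, and scarce genes such as Vipr2 rest on as few as 2 reads in a library.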
